A study of Rattus norvegicus with 125 samples.

Results

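Acute phase genes, 10 of the 13439 named genes on the array, were followed through 5 organs of rats that had breathed phosphine or air. They are A2m (alpha-2-macroglobulin), Hp (haptoglobin), Orm1 (orosomucoid), Lbp (lipopolysaccharide-binding protein), Cp (ceruloplasmin), C3 (complement component 3), Serpina3n (a serine protease inhibitor), Hamp (hepcidin), Cd14 (a co-receptor for bacterial lipopolysaccharide) and Hpx (hemopexin). They were chosen by name, with earlier results of these data known. Of the 19069 probe sets with 1 gene symbol, 12 measured them: 3 for Cp and 1 for each other gene. Of several probe sets, the one with the highest mean in the organ stands for the gene. Alb, the gene of serum albumin, was read on the same arrays as a measure of liver RNA carried into other organs.

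Acute phase proteins are blood proteins that the liver makes in greater or smaller amounts after injury, infection or stress. Interleukin-6, acting through the transcription factor STAT3, and interleukin-1, acting through NF-kB and C/EBP factors, raise their transcription in hepatocytes, and glucocorticoids strengthen the response of many of them. In the rat, alpha-2-macroglobulin and orosomucoid are known as strong reactants and haptoglobin as a moderate one, while albumin is a negative reactant.

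Phosphine (PH3), a fumigant gas that inhibits the mitochondrial respiratory chain, was given to adult male Sprague-Dawley rats by whole-body inhalation. The concentration of 387 ppm was held over 40 min, or 15480 ppm×min. Control rats of the same strain, sex and age breathed air. The arrays came from 48 rats and form 33 groups of 2 to 4 rats. Brain, heart and kidney were sampled at 1, 3, 6 and 24 h, liver at 6 h in both exposures and at 3 h in PH3 rats only, and lung at 3 h, 24 h and 1 week. The groups below 4 rats were Air heart at 24 h and Air lung at 3 h, with 2 each, and PH3 heart at 24 h, PH3 liver at 3 h and PH3 lung at 1 week, with 3 each. All rats were bled to death under ketamine and xylazine, and the tissue was frozen and powdered, so each array mixes every cell type of the piece taken. In such material, fewer cells of a type and less RNA per cell cannot be told apart. Organs of the same rat enter several comparisons, which are therefore not independent. The values are log2 signals, so a difference of 1 is a ratio of 2. Each change is the PH3 mean less the Air mean on that scale, with the limma standard error after ±. The p-values carry a Benjamini and Hochberg adjustment over every gene of the comparison, and 0.05 was the threshold.

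The organ labels matched the marker genes. In Air rats the mean of 12 hepatocyte markers in liver was 13.15 to 13.21, that of 3 cardiomyocyte markers in heart 13.38 to 13.55, that of 4 tubule markers in kidney 11.99 to 12.39 and that of 4 epithelial markers in lung 13.11 to 13.26. In brain, 4 astrocyte markers averaged 9.72 to 10.27 and 3 neuronal markers 7.20 to 7.77. The neuronal mean rested on Snap25, at 12.83 in Air brains at 1 h, where Syn1 was 5.42 and Syt1 4.32. Of the astrocyte list, Slc1a2 was low there, at 5.63. Hepatocyte markers were not at 1 level outside liver. Their mean reached 8.65 in the brain of 1 PH3 rat, 8.31 in that of 1 Air rat and 10.19 in the kidney of 1 PH3 rat. Alb ran from 6.69 to 13.35 over the brain arrays, 3.34 to 11.21 over heart, 3.31 to 13.55 over kidney and 3.76 to 11.03 over lung. The 13.35 was that of an Air brain.

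Promoters of 7 of the 10 genes were in the RefSeq table of build GRCr8. The 250 bases before the start of 3 of them are shown because, of the 10 genes, Orm1 had the smallest p-value in heart at 3 h, Serpina3n in heart at 6 h and Hamp in liver at 6 h. Capitals mark matches, on either strand, to the C/EBP element TTGCNNAA or the STAT3 element TTCNNNGAA.
Orm1 (chr5:81788259-81788508, plus strand): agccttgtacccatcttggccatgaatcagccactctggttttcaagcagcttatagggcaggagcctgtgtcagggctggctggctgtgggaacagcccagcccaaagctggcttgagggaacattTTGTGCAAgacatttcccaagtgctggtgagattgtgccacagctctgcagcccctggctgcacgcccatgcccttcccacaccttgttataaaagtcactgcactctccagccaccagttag
Serpina3n (chr6:129088142-129088391, plus strand): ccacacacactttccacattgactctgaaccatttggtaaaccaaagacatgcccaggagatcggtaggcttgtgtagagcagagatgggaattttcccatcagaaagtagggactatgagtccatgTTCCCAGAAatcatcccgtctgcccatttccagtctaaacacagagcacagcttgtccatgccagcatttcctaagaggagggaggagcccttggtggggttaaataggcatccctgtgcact
Hamp (chr1:95300272-95300521, minus strand): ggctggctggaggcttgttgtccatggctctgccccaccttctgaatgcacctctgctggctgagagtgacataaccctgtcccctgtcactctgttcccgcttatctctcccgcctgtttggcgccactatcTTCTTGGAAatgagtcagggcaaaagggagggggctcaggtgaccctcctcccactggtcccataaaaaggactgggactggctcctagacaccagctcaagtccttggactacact
The C/EBP match of Orm1, TTGTGCAA, begins 123 bases before the start. The STAT3 match of Serpina3n, TTCCCAGAA, begins 123 bases before it, and that of Hamp, TTCTTGGAA, 117 bases before it. A C/EBP match was also present in Cp, C3 and Hpx, at 72, 104 and 200 bases, and no NF-kB element was found in any of the 7 windows. Of 33469 promoters of the same length, 7.67% held the STAT3 element, 9.22% the C/EBP element and 3.54% the NF-kB element. A match is a description of the letters and not a measured binding site.

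In rats that breathed air, most of these genes were highest in liver. At 6 h, in 4 rats with brain, heart, kidney and liver on arrays, 9 of the 10 were higher in liver than in brain, where 44.1% of all genes were higher in liver, 10 of 10 than in heart (31.3% of all genes) and 9 of 10 than in kidney (25.9% of all genes). Hamp, the peptide that lowers iron export, stood at 12.83 ± 0.23 (SD, n = 4) in liver and 10.21 ± 0.67 in heart, a difference of 2.62 ± 0.27 (adjusted p = 6.384e-08 by limma). C3 stood at 13.83 ± 0.06 in liver and 7.24 ± 0.83 in kidney, a difference of 6.59 ± 0.34 (adjusted p = 3.748e-12 by limma). Where a gene lies near the low end of an array, as Orm1 does outside liver, no size of the difference is given.

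The exceptions were A2m in brain and Cp in kidney. A2m, a broad inhibitor of proteases, was 8.58 ± 0.69 in liver and 8.03 ± 0.49 in brain, which did not differ beyond their spread (0.55 ± 0.63, adjusted p = 0.43 by limma). Cp, the copper-carrying ferroxidase of plasma, was lower in liver than in kidney by limma (-0.60 ± 0.19, adjusted p = 0.011) on the probe set that was brightest across all organs together. That probe set averaged 8.93 over the liver arrays and 9.13 over those of kidney. The probe set used for liver averaged 12.67 in liver and 7.12 in kidney, so the 2 probe sets order these organs differently. The tests above treat the organs of a rat as independent arrays. Using the rat as a replicate block left the 3 counts at 9, 10 and 9. It gave a limma adjusted p of 1.385e-07 for Hamp against heart and 3.829e-11 for C3 against kidney.

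Over the Air arrays of every time, the order of the organs differed from gene to gene. For Hamp, heart came next to liver with 8.36 to 11.29 (median 10.44, n = 14), above lung at 5.69 to 7.71 (n = 10) and clear of liver at 12.50 to 13.03 (n = 4). Kidney, at 4.34 to 5.14, lay below lung, and brain, at 4.01 to 6.69, overlapped both. C3, the central protein of complement, was second highest in lung at 9.56 to 10.90, and lung did not overlap liver or kidney. Cd14, found on monocytes and macrophages, had the order liver, lung, heart, kidney and brain, and among neighbours only heart and kidney overlapped. Lbp, which hands lipopolysaccharide to Cd14, was likewise next highest in lung, at 5.37 to 7.01 against 7.21 to 8.03 in liver. For Hp, Orm1, Serpina3n and Hpx, the other 4 organs lay far under liver, and each overlapped its neighbour in the order. Orm1 was at most 4.42 on the Air arrays of heart, 4.16 in lung, 4.41 in kidney and 5.18 in brain. With both exposures, it stood above the array's own 25th percentile on 24 of 29 heart, 8 of 21 lung, 6 of 32 brain and 3 of 32 kidney arrays.

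**Figure D1:**
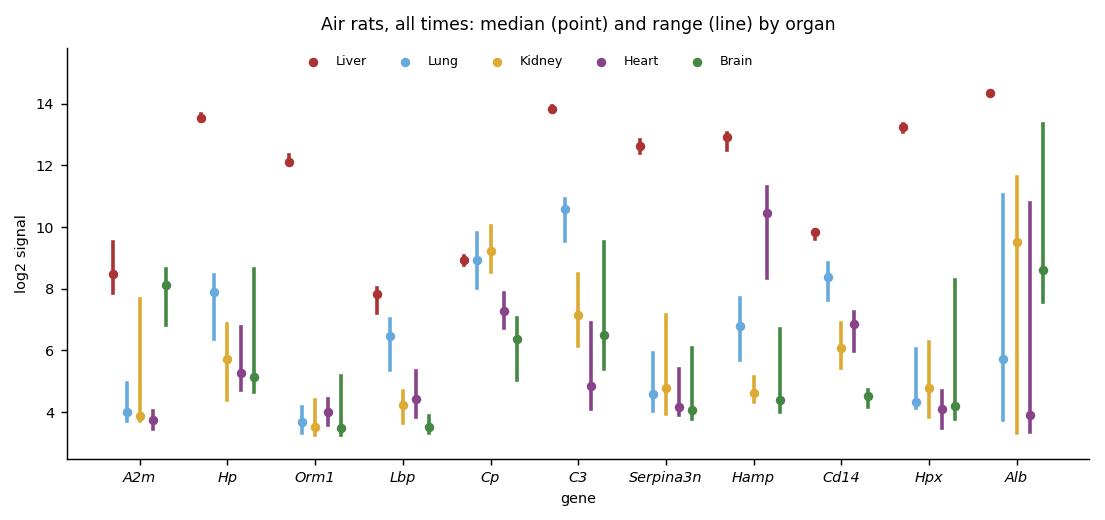
Log2 signal of the 10 genes and Alb in Air rats of all times by organ, with a point at the median and a line over the range (liver n = 4, lung 10, kidney 16, heart 14, brain 16). Liver is highest for 8 genes with no overlap, A2m of brain overlaps that of liver, and Cp is drawn for the probe set that was brightest across all organs together.

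In liver 6 h after exposure, 0 of the 10 genes changed (limma), against 0.238% of all genes called, and 1 of the 10, Hamp, had an unadjusted p under 0.05, against 14.1% of all genes. Means were above Air for 4 and below for 6, with differences from -0.37 to 0.25 and a median of -0.11, where the median of all genes was 0.01. The PH3 and Air arrays of 0 of the 10 were separate, while 9.61% of all genes had separate arrays. The difference in Alb was 0.03 ± 0.04 (limma adjusted p = 0.84).

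Among the strong reactants of the rat, A2m was 8.45, 9.51, 7.85 and 8.51 in the Air livers and 6.77, 8.03, 8.65 and 9.38 in the PH3 livers at 6 h. The groups overlapped, and the lowest array of both was that of PH3 rat 128. The difference of -0.37 ± 0.46 had an adjusted p of 0.78 in limma, and its 95% interval from -1.36 to 0.62 was the widest of the 10 genes. Orm1, a plasma protein that binds drugs, was 12.34, 12.03, 12.14 and 12.06 in Air and 12.20, 12.28, 12.23 and 12.42 in PH3. Air rat 126 lay above 3 of the 4 PH3 rats, and the difference of 0.14 ± 0.09 did not pass (limma adjusted p = 0.51).

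Serpina3n was 12.69, 12.58, 12.80 and 12.41 in Air and 12.87, 12.62, 13.01 and 13.00 in PH3. All PH3 livers but that of rat 134 were above every Air liver. The difference of 0.25 ± 0.12, a ratio of 1.19, was the highest of the 10 genes and did not pass (limma adjusted p = 0.36). Hp, which binds free hemoglobin, was 13.53, 13.67, 13.43 and 13.54 in Air and 13.65, 13.58, 13.61 and 13.65 in PH3. These arrays differed by 0.08 ± 0.06 (limma adjusted p = 0.55), and the 95% interval of the ratio was 0.97 to 1.15. Lbp was 7.21 to 8.03 in Air and 7.53 to 8.10 in PH3, with a difference of 0.12 ± 0.23 (limma adjusted p = 0.86).

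The other 5 genes had lower means in PH3 livers. Hamp was 13.03, 12.50, 12.88 and 12.93 in Air and 12.49, 12.44, 12.15 and 12.78 in PH3. All PH3 livers but that of rat 141 were below every Air liver, the lowest Air value being that of rat 132. The difference of -0.37 ± 0.14, a ratio of 0.77, had the smallest p of the 10 and did not pass (limma adjusted p = 0.23). C3 was 13.82, 13.77, 13.90 and 13.83 in Air and 13.60, 13.89, 13.49 and 13.70 in PH3. Only PH3 rat 134 reached the Air range, and the difference was -0.16 ± 0.07 (limma adjusted p = 0.36). Cd14 differed by -0.23 ± 0.16 (limma adjusted p = 0.57), with PH3 rats 134 and 140 below every Air rat. Beside it, 1 of 8 macrophage and Kupffer cell markers was above 0 (median -0.20, 0 called), with means of the list from 9.10 to 9.60 in Air and 9.26 to 9.30 in PH3, and their part in the Cd14 value was not tested. Hpx, which carries heme in plasma (-0.13 ± 0.07, limma adjusted p = 0.44), and Cp (-0.10 ± 0.09, limma adjusted p = 0.68) were 13.02 to 13.15 and 12.51 to 12.73 in PH3.

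**Figure D2:**
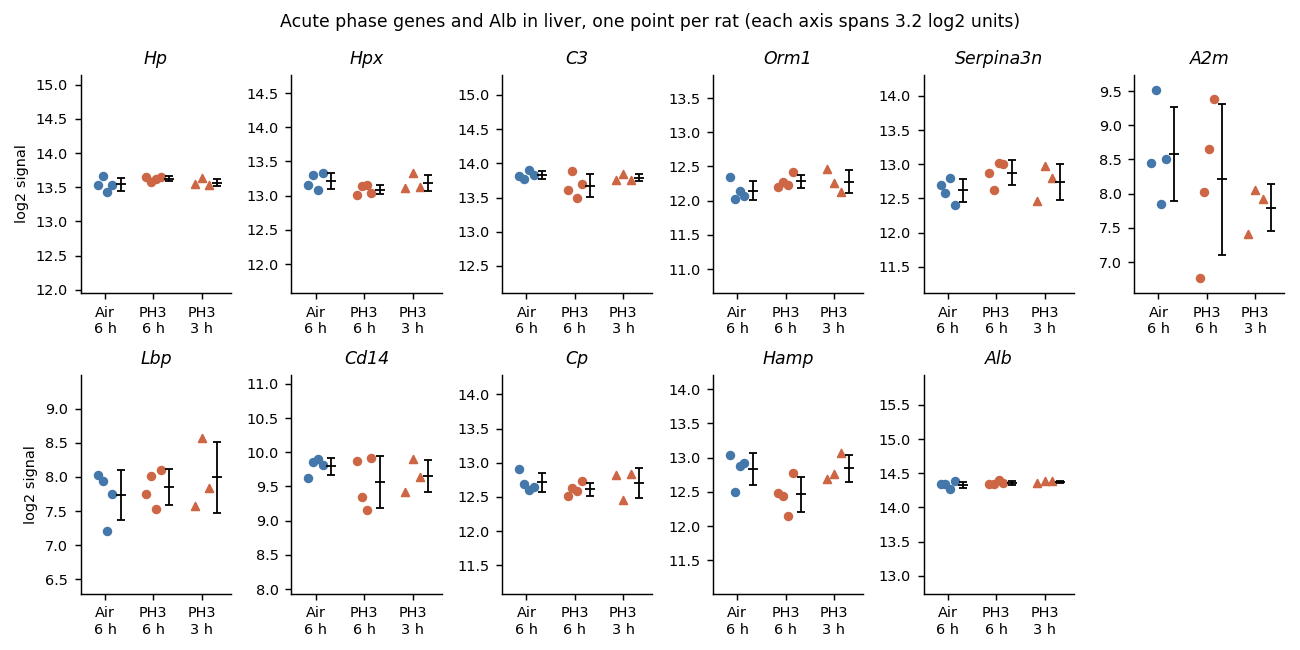
Log2 signal of the 10 genes and Alb in each liver, with Air at 6 h in blue and PH3 in orange (circles at 6 h, triangles at 3 h), and the group mean ± SD in black. Every axis spans the same width, so that A2m, with PH3 values from 6.77 to 9.38, is the widest spread of the panels, and Hamp is 12.15 to 12.78 in PH3 against 12.50 to 13.03 in Air.

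Apart from A2m, Lbp and Cd14, the genes had mean liver signals of 12.23 to 13.76, close to Alb at 14.35, which gave the highest value of the whole table. Whether signals this high still follow RNA amount was not tested. The liver means of A2m, Lbp and Cd14 were 8.23, 7.85 and 9.67.

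The 3 PH3 livers at 3 h had no Air group, so time and differences between the sets of rats cannot be told apart there. Against them, 0 of the 10 genes differed at 6 h in PH3 rats, where 0% of all genes were called, and Hamp again had the one unadjusted p under 0.05, which 8.52% of all genes had (-0.38 ± 0.15, limma adjusted p = 0.51). A2m was 7.41, 8.05 and 7.93 at 3 h, within the 6 h range.

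Other genes of the acute phase response did not pass in liver at 6 h either. Of 23 further positive acute phase proteins measured, 0 passed and 12 were above Air, with a median change of 0.02. The largest changes were those of Il1rn, the interleukin-1 receptor antagonist (1.49 ± 0.36, limma adjusted p = 0.093), whose 4 PH3 livers all lay above the 4 Air livers, of Lcn2, which binds bacterial iron carriers (1.02 ± 0.38, limma adjusted p = 0.24), and of Vnn1 (0.39 ± 0.28, limma adjusted p = 0.58). Of 12 negative acute phase proteins, 0 passed and 9 were not above Air (median -0.04). Rgn (-0.34 ± 0.09, limma adjusted p = 0.11), Serpina6, the corticosteroid-binding globulin (-0.29 ± 0.10, limma adjusted p = 0.21), and Apoh (-0.15 ± 0.07, limma adjusted p = 0.35) had the largest changes.

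Among 23 measured inducing signals and transducers, 0 passed and the median change was -0.06. Cebpa, a transcription factor of hepatocytes (-0.72 ± 0.22, limma adjusted p = 0.15), Stat3 (0.47 ± 0.23, limma adjusted p = 0.37) and Tat, a glucocorticoid-induced aminotransferase (0.40 ± 0.15, limma adjusted p = 0.25), differed most. Among 18 partners and receptors, 0 passed and the median was -0.16. Smad7, an inhibitor of the signal that drives hepcidin (-0.62 ± 0.21, limma adjusted p = 0.20), Itgb2, a leukocyte integrin chain (-0.52 ± 0.20, limma adjusted p = 0.27), and Tlr4, the lipopolysaccharide receptor (-0.39 ± 0.21, limma adjusted p = 0.43), led that list.

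Over the 16 comparisons of PH3 with Air, 0 of 160 tests of these 10 genes passed. An unadjusted p under 0.05 was found in 16 of them, 14 above Air and 2 below, where 7.53% of all tests over all genes had one. Of the 16, 6 were in heart at 6 h.

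**Figure D3:**
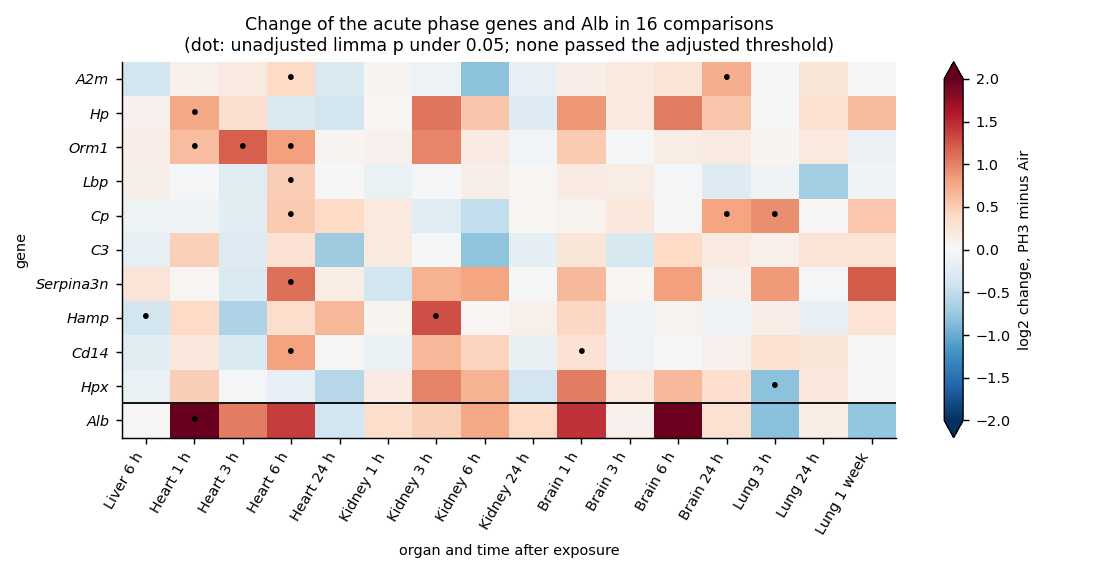
Log2 change of PH3 minus Air for the 10 genes and Alb in 16 organ and time comparisons, red above Air and blue below, with a dot at an unadjusted limma p under 0.05. Heart at 6 h holds 6 dots among the 10 genes, and the Alb value of heart at 1 h, 3.82, lies past the end of the colour scale.

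Heart at 6 h had the most of these genes with an unadjusted p under 0.05, 6 of 10 where 15.1% of all genes had one, and also the highest such share over all genes. There 0 of the 10 genes passed, against 2.7% of all genes, and 8 were above Air, with a median change of 0.45 where that of all genes was -0.01. The PH3 and Air arrays were separate for 1 of the 10, Orm1, and for 10.5% of all genes. Orm1 was 3.81, 4.03, 3.96 and 3.88 in Air hearts and 4.65, 4.79, 4.58 and 4.91 in PH3 hearts. The groups did not overlap, and the difference of 0.81 ± 0.28 did not pass in limma (adjusted p = 0.13), which takes the spread from all heart groups. The Air values lie at about the 25th percentile of the heart arrays, 3.88 to 4.01. Fitted on the arrays of this comparison alone, the difference was called (limma adjusted p = 0.027), with 54 of all genes. It ran from 0.69 to 0.86 over 17 alternatives (limma adjusted p up to 0.78), and 2 of them called it. Serpina3n was 4.10, 4.0, 5.09 and 4.28 in Air and 5.95, 4.17, 5.53 and 6.22 in PH3. PH3 rat 134 stayed among the Air values while the other 3 PH3 rats were above them, and the difference was 1.10 ± 0.32 (limma adjusted p = 0.063). Leaving out PH3 rat 134 raised it to 1.53 (limma adjusted p = 0.0026), and leaving out Air rat 138 raised it to 1.34 (limma adjusted p = 0.041). The difference ran from 0.645 to 1.53 over 17 alternatives (limma adjusted p up to 0.31), and 3 of them called it.

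Cd14 was 7.02, 7.08, 6.87 and 7.24 in Air hearts and 7.58, 8.18, 7.13 and 8.53 in PH3 hearts at 6 h. All PH3 rats but rat 140 were above every Air rat, and the difference was 0.80 ± 0.26 (limma adjusted p = 0.090). It was 1.04 without PH3 rat 140 (limma adjusted p = 0.022). Over 18 alternatives it ran from 0.36 to 1.04 (limma adjusted p up to 0.94), and 2 of them called it. Lbp (0.50 ± 0.20, limma adjusted p = 0.20), Cp (0.53 ± 0.24, limma adjusted p = 0.27) and A2m (0.40 ± 0.20, limma adjusted p = 0.33) were also above Air by their means. A2m lay near the low end in heart, at 3.75 to 4.03 in these Air hearts. It stood above the array's own 25th percentile on 7 of 29 heart arrays. Rat 141 had the highest PH3 value of A2m, Hp, Orm1, Lbp, C3, Serpina3n, Hamp and Cd14 in this group, and its heart also had the highest Alb of the PH3 group, 8.89. Hp (-0.30 ± 0.33, limma adjusted p = 0.78) and Hpx (-0.17 ± 0.29, limma adjusted p = 0.88), among the genes highest in liver, were below Air by their means.

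Alb itself was 3.38, 3.40, 3.86 and 9.09 in these Air hearts and 5.33, 6.77, 4.26 and 8.89 in PH3. The difference was 1.38 ± 1.41 (limma adjusted p = 0.74). Of 12 hepatocyte markers 8 were above Air and 0 were called, with means of the list from 3.75 to 4.65 in Air and 3.99 to 4.82 in PH3. Without the arrays of high Alb, which left 2 PH3 and 3 Air hearts, Serpina3n was called at 1.34 (limma adjusted p = 0.019), with 75 of all genes. The PH3 hearts so left out were those of rats 134 and 141. Rat 134 was the PH3 rat with low Serpina3n, and leaving out its array alone gave 1.53, so the part of Alb cannot be told apart here. With Alb as a covariate, Serpina3n was not called. Of 5 neutrophil markers measured 4 were above Air and 0 were called, with means of 4.23 to 4.66 in Air and 4.47 to 4.92 in PH3, and their part in the Cd14 and Serpina3n values was not tested.

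Among the genes around them in heart at 6 h, 3 of the 23 signals and transducers passed, each upward, and 0 of the further positive acute phase proteins did. Il1b, an interleukin-1 gene, rose by 0.94 ± 0.24 (limma adjusted p = 0.031), Stat3 by 0.57 ± 0.12 (limma adjusted p = 0.0060) and Tnfrsf1a, a receptor of tumour necrosis factor, by 0.79 ± 0.20 (limma adjusted p = 0.026). Of the 8 macrophage markers, C1qb rose by 0.56 ± 0.15 (limma adjusted p = 0.040), and 4 of 8 were above Air.

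At the other times in heart, 0 of the 10 genes passed, where 0.0521% of all genes were called at 1 h, 0.238% at 3 h and 0% at 24 h. Orm1 had the smallest p of any member in any comparison, at 3 h. It was 3.78, 4.06, 4.33 and 3.94 in Air and 3.94, 4.89, 6.06 and 5.98 in PH3. PH3 rat 105 lay within the Air range, the other 3 were above it, and the difference was 1.19 ± 0.28 (limma adjusted p = 0.060). Without PH3 rat 105 it was 1.62 (limma adjusted p = 0.00055), and with array weights 1.25 (limma adjusted p = 0.046). Only these 2 of 17 alternatives called it, and it ran from 0.90 to 1.62 over them all (limma adjusted p up to 0.42). Alb on these arrays was 4.54, 3.84, 3.71 and 8.47 in Air and 5.92, 6.38, 7.68 and 4.64 in PH3. Orm1 at 3 h was not called with Alb as a covariate or without the arrays of high Alb, as in the main fit. Over the 29 hearts, its r with Alb after the group means were subtracted was 0.06. The part of Alb in the Orm1 values was not tested otherwise. At 1 h, Alb was 3.34 to 4.26 in Air and 5.05 to 11.21 in PH3 (3.82 ± 1.41, limma adjusted p = 0.50). With it Hp (0.77 ± 0.33, limma adjusted p = 0.57), Orm1 (0.61 ± 0.28, limma adjusted p = 0.59), Hpx (0.50) and C3 (0.48) were above Air, and rat 116, with the highest Alb, had the highest Hp at 7.27, C3 at 7.35 and Hpx at 5.81.

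The exposure effect was compared between the 4 times by a limma F test, which called 0.268% of all genes in heart. None of the 10 passed, and the lowest adjusted p values were 0.45 for Serpina3n and 0.47 for Cd14. Of the 23 signals and transducers, 2 passed at 1 h and 1 at 3 h. Cebpb, a C/EBP factor, rose by 1.18 ± 0.22 at 1 h (limma adjusted p = 0.026), and Fkbp5, which glucocorticoids induce, by 1.94 ± 0.25 at 1 h (limma adjusted p = 0.00018) and by 1.40 ± 0.25 at 3 h (limma adjusted p = 0.0085). Id1, a partner gene and target of the pathway that drives hepcidin, rose by 0.55 ± 0.11 at 1 h (limma adjusted p = 0.041), while Hamp was 8.36 to 11.07 in Air and 8.74 to 11.23 in PH3 (0.40 ± 0.69, limma adjusted p = 0.95).

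**Figure D4:**
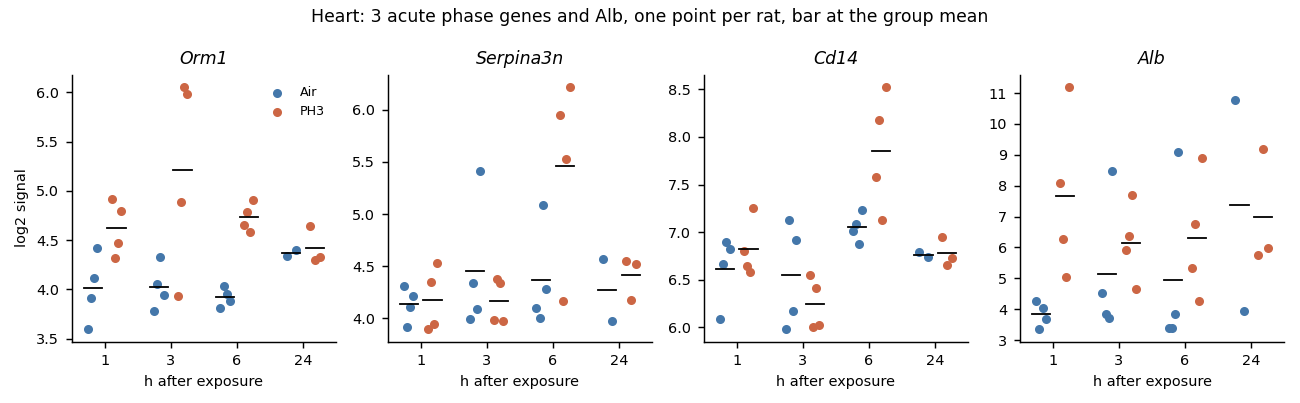
Log2 signal of Orm1, Serpina3n, Cd14 and Alb in each heart by hours after exposure, Air in blue and PH3 in orange, with a bar at the group mean (n = 4, but 2 Air and 3 PH3 at 24 h). At 6 h the 4 Orm1 values of PH3 lie at 4.58 to 4.91, above the Air range of 3.81 to 4.03, and at 3 h they spread from 3.94 to 6.06.

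In kidney, 0 of the 10 genes passed at any time, where 0.223% of all genes were called at 1 h, 0.104% at 3 h, 0.126% at 6 h and 0.0149% at 24 h. The highest changes were at 3 h: Hamp 1.29 ± 0.44 (limma adjusted p = 0.41), Hp 1.07 ± 0.77 (limma adjusted p = 0.76), Hpx 1.00 ± 0.73 (limma adjusted p = 0.76) and Orm1 0.98 ± 0.49 (limma adjusted p = 0.69). Hamp was 4.58, 4.34, 4.82 and 4.47 in Air and 4.32, 5.13, 5.64 and 8.30 in PH3. The 8.30 was that of rat 152, and this kidney also had the highest Hp (10.69), Hpx (9.77), C3 (10.55), Orm1 (7.56), Serpina3n (8.33) and Alb (13.55) of the 32 kidneys. The mean of the 12 hepatocyte markers was 10.19 there, with 7.15 the lowest of the PH3 group and 6.95 to 7.88 in the Air group. Without this rat the differences were 0.47 for Hamp, -0.12 for Hp, -0.23 for Hpx and -0.02 for Orm1. Without PH3 rat 105, Hamp was called at 1.80 (limma adjusted p = 0.047).

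Nfkbia, an inhibitor of NF-kB that the factor itself induces (0.60 ± 0.12, limma adjusted p = 0.024), and Fkbp5 (1.58 ± 0.30, limma adjusted p = 0.023) rose in the same kidneys at 3 h. A2m was near the bottom of the scale in kidney, at 3.68 to 4.20 on 31 of the 32 arrays, and 7.67 in Air rat 126 at 6 h. The limma F test over times called 0% of all genes in kidney.

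In brain, 0 of the 10 genes passed, where 0.00744% of all genes were called at 1 h, 3 h and 6 h alike and 0.0298% at 24 h, and the F test over times called 0%. At 24 h A2m was 8.22, 8.12, 6.92 and 6.84 in Air and 7.92, 7.74, 8.77 and 8.59 in PH3, and Cp 5.93, 6.46, 5.09 and 5.04 in Air and 6.48, 5.54, 6.76 and 6.87 in PH3. Air rats 89 and 145 were the low ones for both genes, and lay below every PH3 rat. The differences of 0.73 ± 0.32 for A2m and 0.79 ± 0.35 for Cp had an adjusted p of 0.36 each in limma. Without these 2 rats, a choice made after seeing the data, they were 0.08 and 0.22. Of 4 choroid plexus markers 0 were above Air at 24 h, with means of the list from 7.18 to 7.75 in Air and 5.58 to 7.49 in PH3, and their part in the A2m and Cp values was not tested. Without the arrays of high Alb, which left 2 PH3 rats and these same 2 Air rats, A2m was called at 1.46 (limma adjusted p = 0.0056) and Cp at 1.55 (limma adjusted p = 0.015), but so were 18.2% of all genes, so these calls are not particular to the 2 genes. At 6 h Serpina3n was 3.77 to 4.14 in Air and 4.42 to 5.46 in PH3 with no overlap, as for 2.37% of all genes (0.82 ± 0.41, limma adjusted p = 0.9999), and Alb on these arrays was 7.81 to 11.29 and 8.53 to 12.25.

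In lung, 0 of the 10 genes passed, where 0.298% of all genes were called at 3 h and 0% at 24 h, at 1 week and in the F test over times. Cp at 3 h was 8.99 and 8.90 in the 2 Air lungs and 10.01, 10.01, 9.31 and 10.18 in the PH3 lungs. Every PH3 value was above both Air values, but 41.3% of all genes had separate arrays here, and the difference was 0.93 ± 0.42 (limma adjusted p = 0.41). The other 2 Cp probe sets gave 1.24 and 1.50. With array weights the difference was called at 0.98 (limma adjusted p = 0.017), as were 19.1% of all genes, and the estimate of those weights in lung stopped before it converged. Hpx was 6.06 and 4.35 in Air and 4.0 to 4.74 in PH3, and its difference of -0.82 ± 0.32 (limma adjusted p = 0.35) rested on Air rat 144, whose Alb of 11.03 was the highest of the 21 lungs. Without that rat it was 0.03. Without the other Air rat, 150, it was -1.68 (limma adjusted p = 0.014), with 1 Air lung left, assumed to vary like the other groups. Serpina3n at 3 h was 4.66 and 5.91 in Air and 8.13, 7.31, 4.47 and 4.63 in PH3, with PH3 rats 147 and 148 high and the other 2 below both Air values (0.85 ± 0.87, limma adjusted p = 0.68). At 1 week it was 4.47, 5.59, 4.21 and 4.51 in Air and 5.71, 5.75 and 6.24 in PH3, with no overlap, as for 1.69% of all genes (1.21 ± 0.76, limma adjusted p = 0.9999).

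Among the genes around them, Cd163, the macrophage receptor that takes up haptoglobin with hemoglobin, rose by 2.02 ± 0.34 in lung at 3 h (limma adjusted p = 0.012), while the difference in Hp was 0.01 ± 0.44 (limma adjusted p = 0.99). The other macrophage markers measured did not pass and went both ways. Adgre1 (-1.18), Csf1r (-0.63), Cd68 (-0.49), C1qa (-0.32) and Clec4f (-0.01) were below Air, and C1qb (0.52) and C1qc (0.24) above. Fkbp5 rose by 2.65 ± 0.36 (limma adjusted p = 0.0022) and Nfkbia by 1.25 ± 0.24 (limma adjusted p = 0.026) in the same lungs. Genes of these lists passed at 3 h in kidney and lung and at 1, 3 and 6 h in heart, and 0 passed in the other comparisons (limma).

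Whether the exposure effect at 6 h differed between brain, heart, kidney and liver was tested by a limma F test, which called 1.76% of all genes. None of the 10 passed. Orm1, at 0.81 in heart and 0.14 in liver and in brain, was nearest, with an adjusted p of 0.073 in limma, or 0.056 with the rat as a replicate block. Cd14 followed at 0.27 and Cp at 0.35.

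Across the arrays outside liver, several of the genes varied with Alb. Over 40 relations, 10 genes in 4 organs, two-sided permutation tests with Benjamini and Hochberg adjustment found 7 in brain, 6 in kidney, 3 in heart and 1 in lung under 0.05, each positive. By Spearman's rho the counts were 6, 5, 2 and 1. Over all genes of the organ, 1.88% in brain, 0.923% in kidney, 0.26% in heart and 0.305% in lung had an r at or above the lowest r so counted. In brain, Hp and Alb had a Pearson r of 0.86 and a Spearman rho of 0.92 (n = 32, permutation p = 1e-05 for each, the smallest that 100000 resamples can give, adjusted p = 5e-05 and 5.71e-05). It was 0.85 without the 2 arrays farthest from the median Alb, 0.86 after the group means were subtracted, 0.84 among PH3 and 0.88 among Air arrays. Hpx (r = 0.86), C3 (0.84), Serpina3n (0.82), Hamp (0.71) and Orm1 (0.70) in brain had the same permutation p, and were 0.87, 0.81, 0.78, 0.64 and 0.77 without those 2 arrays. A2m in brain followed Alb less closely (r = 0.41, adjusted permutation p = 0.046, rho = 0.36, adjusted permutation p = 0.099).

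In kidney, Hp (r = 0.78, rho = 0.89) and Hpx (r = 0.73, rho = 0.88) followed Alb most closely, each with a permutation p of 1e-05, and stood at 0.79 and 0.71 without the 2 arrays. In heart, Hp (r = 0.70, adjusted permutation p = 0.00022), C3 (r = 0.68, adjusted permutation p = 0.0002) and Hpx (r = 0.58, adjusted permutation p = 0.0025) varied with Alb over 29 arrays. Their rho was 0.48, 0.48 and 0.36, with adjusted permutation p = 0.031, 0.030 and 0.11, so Hpx did not pass by rank. They were 0.47, 0.42 and 0.29 without the 2 arrays farthest from the median Alb, so the heart values rest in part on those. In lung, Hpx had r = 0.68 over 21 arrays (adjusted permutation p = 0.0025, rho = 0.52), 0.47 without the 2 arrays, 0.88 among the 10 Air arrays and 0.29 among the 11 PH3 arrays.

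Lbp and Cp showed no relation to Alb under 0.05 in any of the 4 organs, and neither did Cd14. Cp had r = 0.19 in brain, 0.07 in heart, -0.12 in kidney and -0.08 in lung (adjusted permutation p = 0.43 to 0.85). In heart, Orm1 (r = 0.27, adjusted permutation p = 0.25), Serpina3n (r = 0.25, adjusted permutation p = 0.29) and Cd14 (r = 0.28, adjusted permutation p = 0.24) followed Alb less closely than Hp did by value, a difference that was not tested. Their rho was 0.40, 0.38 and 0.13 (adjusted permutation p = 0.091, 0.10 and 0.69), against 0.48 for Hp and 0.36 for Hpx. Without the 2 arrays farthest from the median Alb, their r was 0.29, 0.28 and 0.29, against 0.47 for Hp and 0.29 for Hpx. Liver RNA carried into an organ and transcription of Alb in the organ itself cannot be told apart by this measure.

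**Figure D5:**
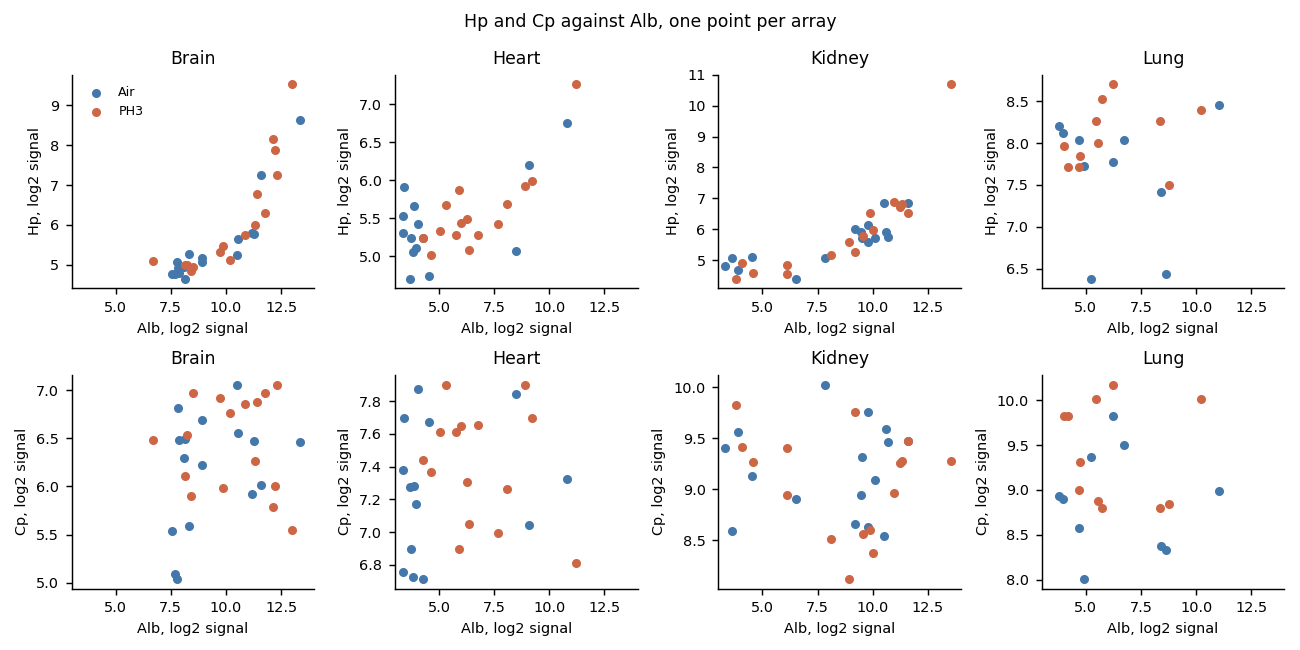
Log2 signal of Hp (top) and Cp (bottom) against that of Alb, one point per array, Air in blue and PH3 in orange, for brain (n = 32), heart (29), kidney (32) and lung (21). Hp climbs with Alb in brain and kidney (r = 0.86 and 0.78), and Cp does not (r = 0.19 and -0.12).

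For each gene, the 2 genes with the highest Pearson r over the 11 liver arrays were listed out of 13438. The closest were Foxe1 for Lbp (r = 0.97), Nefh and Septin4 for Hpx (0.93 and 0.92), Mzt1 and Erap1 for Cp (0.92 and 0.91) and Csf1 for Orm1 (0.91). For the other 6 genes the highest r lay at 0.85 to 0.89, with Misfal for A2m, Nes for Serpina3n, Wtap for Hamp, Stac2 for Hp, Oxtr for C3 and Lsamp for Cd14. No member had another member among its 2 closest genes. With 11 arrays and this many genes compared, these values describe the arrays only.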

How the data were processed

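RNA of frozen, powdered organs was labelled by a 3' in vitro transcription kit and hybridised to Affymetrix rat arrays, per the labels' protocols. The deposited values are log2 signals. The submitters' processing notes list Partek, RMA and the Affymetrix Expression Console, with no version or role. RMA puts arrays on a common scale and is known to compress differences at low signal. Whether it was run over all organs at once is not given in the sources used here, and the levels set between organs assume a common scale. Blood was not analysed here. Precision rests on the number of rats, and the p-values of PH3 against Air set a difference against the spread between rats.

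Of 31139 probe sets, 19069 had 1 gene symbol, 572 several and 11498 none in the platform annotation, and 18989 matched RefSeq genes. The brightest probe set in an organ stood for a gene (for comparisons of organs, the brightest across organs). All arrays of an organ entered a single fit with limma 3.58.1 (R 4.3.3), which gave each group its own mean and moderated the variances with a trend, and was checked on simulated data. Permutations used numpy 2.4.6, and plots matplotlib 3.10.9. Groups followed the labels. The members and lists were chosen with earlier results of these data known. The text names the 10 genes, Alb, list genes that passed, the 3 largest changes per list in liver at 6 h, and the 2 genes most like each member. Organs of the same rat carry its number, which makes the pairing one of animals. Deviations from group means of same-rat arrays at 6 h correlated with a median of 0.11 over 45 pairs (-0.25 to 0.30), against -0.03 for other rats. Alternatives covered the arrays fitted, trend, filter, weights, probe sets, scaling, Alb and each replicate.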

Additional observations from a re-analysis of the deposited data

Results flagged for a closer look

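Within a group of 4 rats, 26 of 280 combinations of gene and group had 1 array far from the other 3. Chance gives about 1 in 20 for independent normal values, but these combinations share arrays and rats. The count was not taken over all genes. The log2 signals of those arrays are given with the range of the other 3. The heart of PH3 rat 98 at 1 h had Hamp 8.74 (others 11.05 to 11.23). The kidney of Air rat 126 at 6 h had A2m 7.67 (others 3.70 to 3.79). The kidney of Air rat 83 at 24 h had Orm1 4.41 (others 3.52 to 3.60) and Serpina3n 7.16 (others 4.18 to 4.47). The kidney of PH3 rat 152 at 3 h had Orm1 7.56 (others 3.25 to 3.79) and Serpina3n 8.33 (others 4.56 to 5.05). The kidney of PH3 rat 134 at 6 h had Cp 8.12 (others 9.26 to 9.41). The brain of PH3 rat 141 at 6 h had A2m 9.17 (others 7.93 to 8.10), Serpina3n 5.46 (others 4.42 to 4.58) and Hamp 5.18 (others 4.17 to 4.28). The brain of Air rat 96 at 1 h had Hp 7.24 (others 4.78 to 5.18) and Orm1 3.81 (others 3.27 to 3.35). The brain of Air rat 156 at 6 h had Hp 5.78 (others 4.80 to 4.95) and Hpx 5.35 (others 3.90 to 4.13). The brain of PH3 rat 85 at 24 h had Orm1 6.15 (others 3.45 to 3.68). The brain of PH3 rat 105 at 3 h had Orm1 3.80 (others 3.34 to 3.40). The brain of PH3 rat 109 at 1 h had Lbp 3.26 (others 3.78 to 3.86). The brain of PH3 rat 98 at 1 h had Cp 7.06 (others 5.78 to 5.99). The brain of Air rat 84 at 24 h had Hamp 6.69 (others 4.31 to 4.57). The lung of PH3 rat 147 at 3 h had A2m 5.13 (others 3.75 to 3.94). The lung of Air rat 84 at 24 h had Hp 6.44 (others 7.77 to 8.03), C3 9.56 (others 10.66 to 10.83) and Hpx 4.77 (others 4.26 to 4.29). The lung of PH3 rat 149 at 24 h had Cp 9.82 (others 8.80 to 8.87). The lung of PH3 rat 70 at 24 h had Serpina3n 6.60 (others 4.05 to 4.29) and Cd14 8.27 (others 8.46 to 8.48). Whether these arrays differ in tissue sampled or in the rat was not tested.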

How the results depend on the processing

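In liver at 6 h the count of the 10 genes called was 0 under each of 16 alternatives, A2m ranged from -0.76 to 0.11 and Lbp from -0.06 to 0.23, and the other 8 kept their sign. Outside liver, the count of 0 became 1 in heart at 3 h and 2 in heart at 6 h with array weights, 1 in heart at 6 h when its arrays were fitted alone or without arrays of high Alb, 2 in brain at 24 h without arrays of high Alb, and 1 in lung at 3 h with array weights. Over all genes, the weights called 751 in heart at 6 h (363 without) and 2561 in lung at 3 h (40 without), and leaving out arrays of high Alb called 2446 in brain at 24 h (4 without). In lung and brain the estimate of the weights stopped before it converged. Leaving out 1 replicate at a time gave counts of 0 to 1 in lung at 3 h, kidney at 3 h and heart at 3 h and 6 h. The gene in kidney was Hamp without PH3 rat 105 (1.80, limma adjusted p = 0.047). The gene in lung with array weights was Cp (0.98, limma adjusted p = 0.017). With array weights in heart the genes were Orm1 at 3 h (1.25, limma adjusted p = 0.046) and Orm1 and Cd14 at 6 h (0.76 and 0.72, limma adjusted p = 0.042 and 0.029). The cause of these shifts was not tested. With the rat as a replicate block, the members higher in liver stayed at 9 (brain), 10 (heart) and 9 (kidney), 0 exposure effects of the 10 differed between organs, and the count over all genes went from 237 to 325. Groups of 2 to 4 rats limit what can be called: in liver the standard errors of the 10 genes ran from 0.06 to 0.46.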
